A study of Mus musculus with 12 samples.

Results

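Macrophages grown from the bone marrow of 2 Commd1 knockout mice were compared after 3 h of lipopolysaccharide (LPS) with the untreated cells of the same mice. The comparison takes the 4 samples whose titles give the knockout at these times, of 12 in the series. The cells came from marrow kept 10 days in GM-CSF (20 ng/ml), a growth factor that drives myeloid progenitors towards macrophages and dendritic cells, and LPS was given at 10 ng/mL. Each sample was hybridised alone to a single-colour array, and a mouse gave 1 untreated sample, 1 sample at 3 h and 1 at 24 h. Cells of 2 wildtype mice, untreated and at 3 h, and the knockout cells at 24 h are used here only to show where the knockout response at 3 h stood. The labels name the genotype as Commd1 knockout, with no strain, age or design of the allele, so it is not known here in which cells the gene was deleted.

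LPS, a component of the outer membrane of Gram-negative bacteria, is handed by CD14 to the receptor TLR4 with its partner MD-2. The adaptors MyD88 and TRIF then lead to the kinases that free NF-kB from its inhibitors, to the MAP kinases and to the transcription factor IRF3, and newly made interferon beta acts back on the cells to raise antiviral genes. COMMD1 belongs to the CCC complex, which returns membrane proteins from endosomes to the cell surface. It is also known for promoting the breakdown of the NF-kB subunit RelA and for its part in copper export.

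Commd1, the targeted gene, was measured by a probe on chromosome 11 (mm9, 22856412 to 22856471). Levels here are log2 processed intensities minus the array's 75th percentile, so that they compare arrays for 1 probe and not probes with each other. In wildtype cells the Commd1 level was 2.72 and 2.79 untreated and 2.73 and 2.70 at 3 h. In knockout mouse 1 it was -0.50 untreated and -0.48 at 3 h, and in knockout mouse 2 it was -0.01 and 0.07. The knockout arrays all lay below the wildtype ones, and LPS changed the level in knockout cells by 0.05 ± 0.23 (standard error, n = 2 per group; adjusted p = 0.872). Even so, all knockout arrays gave a signal above background for this probe, and it is not known whether its target was deleted.

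Of the probes, 69.2% and 65.7% were well above background on the untreated knockout arrays and 64.0% and 66.4% on the 3 h arrays. The untreated arrays shared 1 slide and the 3 h arrays another, so an effect of the slide and one of LPS cannot be told apart. All 9 macrophage markers were above background on all 4 arrays, and their summed level was 8.44 to 8.49 untreated and 8.78 to 9.02 at 3 h. Of 9 dendritic cell markers 4 were above background untreated and 5 at 3 h, with 5 called higher, while Clec9a and Xcr1 were not above background. Neutrophil markers summed to 4.39 to 4.42 untreated and 3.75 to 3.87 at 3 h, with 7 of 9 above background. Yet 3 of them were called higher and 1 lower. A sum is set mostly by the brightest probes, so it need not follow most markers. Of T and NK cell markers 3 of 8 were above background, Cd3d, Cd3g and Cd8a were not, and the summed level was 2.91 to 2.99 and 2.77 to 2.85. For B cells 4 of 6 markers were above background untreated and 5 at 3 h, and the sum went from 0.69 to 0.75 down to -0.32 to -0.21. In that list 1 marker was called higher and 1 lower. The erythroid sum stood at -1.07 to -0.76 untreated and at -3.23 to -2.97 at 3 h (2 of 4 markers). Mast cell and basophil markers (2 of 7, then 1), eosinophil markers (1 of 4) and stromal markers (5 of 7) were otherwise the ones detected. What part these cells had in the gene results was not tested, and in such bulk samples fewer cells of a type and less RNA per cell cannot be told apart.

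The response covered about as many genes as it left out. Of 22971 genes tested, 11974 (52.1%) passed the threshold of adjusted p under 0.05 in limma, 6064 higher at 3 h (26.4%) and 5910 lower (25.7%). A gene is said to rise or fall below only if it passed. At least 2-fold changes numbered 2583 up and 2781 down, and at least 16-fold ones 300 up and 67 down, so the steepest changes were more often rises. The sign was the same in both mice for 11966 of the called genes. The calls came from these same arrays, so such agreement was largely built in. For 17531 of all genes tested (76.3%) the 2 untreated arrays did not overlap the 2 arrays at 3 h. The median change of all genes was 0.057. When arrays were scaled on the probes detected on all arrays it was -0.092 and the split became 4689 higher and 7399 lower (38.8% of the calls higher, against 50.6%), so small changes depend on the scaling. Arrays of a mouse were treated as independent, and an error or p-value measures the spread between these arrays.

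**Figure D1:**
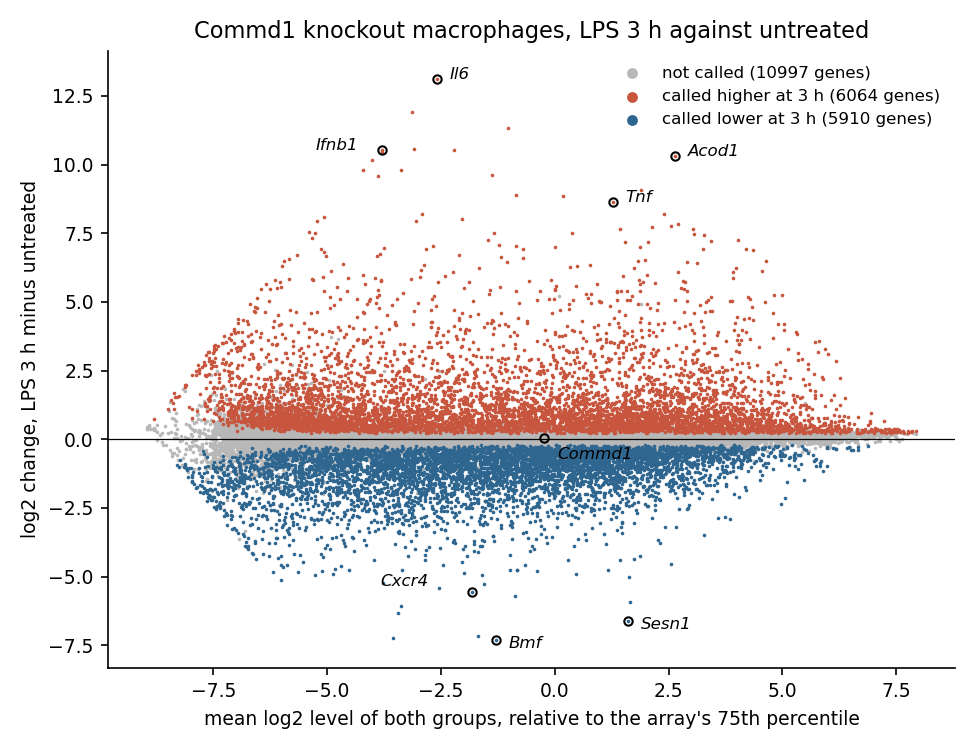
Change of each gene in Commd1 knockout macrophages, LPS 3 h minus untreated (vertical axis, log2), against its mean level over both groups (horizontal axis, log2 relative to the array's 75th percentile). Each point is 1 gene, coloured where it was called higher (6064 genes) or lower (5910 genes); the rises reach further from 0 than the falls, and Commd1 lies on the line.

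Il6, an inflammatory cytokine gene, had the largest rise from below background. Its level was -9.29 and -9.02 in untreated cells, where the probe was not well above background, and 4.05 and 3.89 at 3 h, an at least 1850-fold rise (probe on chromosome 5, mm9, 30346367 to 30346426). Where both arrays of a group were below background for a probe, a fold is given as a bound. The bound is taken against the lowest signal detected on the array, or the probe's own signal there if that was higher. Where the probe was above background on 1 of the 2 arrays, the levels are given without a size. The chemokine gene Cxcl3 went from -9.15 and -8.92 to 1.41 and 1.44, at least 317-fold, and the interferon beta gene Ifnb1 from -9.29 and -8.80 to 1.60 and 1.34, at least 328-fold. In both mice the signal thus went from below background to well above it, and the levels of the mice at 3 h lay within 0.3 of each other for these 3 genes.

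The stretches of 250 bases before the start of these 3 genes, and of the interferon-inducible chemokine gene Cxcl10 described below, hold letters that NF-kB, interferon-activated factors or AP-1 are known to bind. They are taken from RefSeq (GRCm38.p6) and run 5′ to 3′ on the gene's strand. Capitals mark matches on either strand to GGGANNTTC or GGGGNNTTC (NF-kB), GAAANNGAA (the interferon-stimulated response element, ISRE) or TGAGTCA and its reverse TGACTCA (AP-1).
Il6, chr5:30012864-30013113, + strand: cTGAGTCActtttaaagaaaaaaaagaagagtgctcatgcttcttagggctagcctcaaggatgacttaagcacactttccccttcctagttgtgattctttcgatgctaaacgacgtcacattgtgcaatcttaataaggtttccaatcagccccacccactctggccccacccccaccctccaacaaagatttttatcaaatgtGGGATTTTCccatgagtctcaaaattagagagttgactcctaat
Cxcl3, chr5:90785851-90786100, + strand: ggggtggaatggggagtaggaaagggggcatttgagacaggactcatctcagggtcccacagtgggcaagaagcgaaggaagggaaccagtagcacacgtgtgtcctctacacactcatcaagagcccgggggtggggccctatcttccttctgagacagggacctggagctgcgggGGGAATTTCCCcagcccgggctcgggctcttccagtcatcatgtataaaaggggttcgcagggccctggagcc
Ifnb1, chr4:88522795-88523044, - strand: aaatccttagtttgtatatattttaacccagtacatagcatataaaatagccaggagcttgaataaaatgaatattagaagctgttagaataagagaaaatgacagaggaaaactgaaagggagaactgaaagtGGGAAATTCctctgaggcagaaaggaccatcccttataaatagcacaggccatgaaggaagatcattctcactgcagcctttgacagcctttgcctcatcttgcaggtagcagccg
Cxcl10, chr5:92348890-92349139, - strand: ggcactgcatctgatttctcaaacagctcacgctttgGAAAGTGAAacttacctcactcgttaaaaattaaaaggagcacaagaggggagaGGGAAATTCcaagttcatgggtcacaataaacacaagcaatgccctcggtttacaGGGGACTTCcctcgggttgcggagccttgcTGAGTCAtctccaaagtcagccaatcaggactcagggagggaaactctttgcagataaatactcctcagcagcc
In Il6 the NF-kB match starts 44 bases before the start and the AP-1 match 249 bases before it. Cxcl3 holds 2 overlapping NF-kB matches, from 73 and 71 bases before the start, and Ifnb1 holds 1 from 116 bases. Cxcl10 holds NF-kB matches from 159 and 104 bases, an ISRE match from 213 bases and an AP-1 match from 74 bases before the start. Over the 300-base windows (250 bases before to 50 after the start) of all tested genes with one, 7.96% of 16590 windows held an NF-kB match, 7.54% an ISRE match and 4.24% an AP-1 match. Of the 20 genes with the largest rises named here 14 have a window, and 4 of these hold an NF-kB match, 4 an ISRE match and 3 an AP-1 match. Olr1, Edn1, Ptgs2 and Il12b, which also rose from below background, hold no NF-kB match. These are single genes and not a comparison with that background, and the shares over all strongly changed genes are incomplete, because 690 of the 1143 genes called at least 4-fold higher and 515 of the 796 called at least 4-fold lower have a window. A match is a description of the letters and not of binding.

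Among genes measured in both groups, Acod1, which encodes the enzyme that makes itaconate, rose most. It went from -2.63 and -2.38 to 7.89 and 7.72, a change of 10.31 ± 0.12 (probe on chromosome 14, mm9, 103455171 to 103455231). Adamts4, an aggrecan-cleaving protease, went from -6.21 and -6.16 to 3.43 and 3.46, and Rnd1, a small GTPase gene, from -2.71 and -2.60 to 6.54 and 6.34. Cd69, an early activation antigen of leukocytes, rose from -4.33 and -4.17 to 4.65 and 4.52. The arrays of a group lay within 0.3 of each other for all 4 genes, against changes of 8.84 to 10.31. Hdc, which makes histamine, rose by 8.03 ± 0.20, Saa3, an acute-phase serum amyloid gene, by 7.65 ± 0.27, and Olr1, a receptor for oxidised lipoproteins, at least 836-fold.

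Bmf, a BH3-only gene that promotes apoptosis, fell most among genes measured in both groups. Its level was 2.75 and 1.97 in untreated cells and -4.85 and -5.03 at 3 h, and it fell by 7.30 ± 0.36 (probe on chromosome 2, mm9, 118354496 to 118354555). Fam214a went from 1.87 and 1.94 to -5.37 and -5.17. The stress-induced gene Sesn1, a brake on the growth kinase mTORC1, went from 4.98 and 4.86 to -1.93 and -1.45, and Lyl1, a basic helix-loop-helix transcription factor of blood cells, from 4.74 and 4.48 to -1.33 and -1.32. All 4 genes thus fell by more than 5.9 on the log2 scale. They were picked for the size of the fall and its sign in both mice, so groups without overlap are built in. Arrdc3, an arrestin-domain protein gene, fell by 5.70 ± 0.21, and the chemokine receptor gene Cxcr4 by 5.56 ± 0.23. Slc26a11, an anion transporter gene (-5.03 ± 0.14), Mex3b, which encodes an RNA-binding protein (-4.95 ± 0.14), and Lpin1, a phosphatidate phosphatase gene of lipid synthesis (-4.87 ± 0.16), fell as well. So did Tmem86a (-4.91 ± 0.10) and Fam78a (-4.77 ± 0.18).

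**Figure D2:**
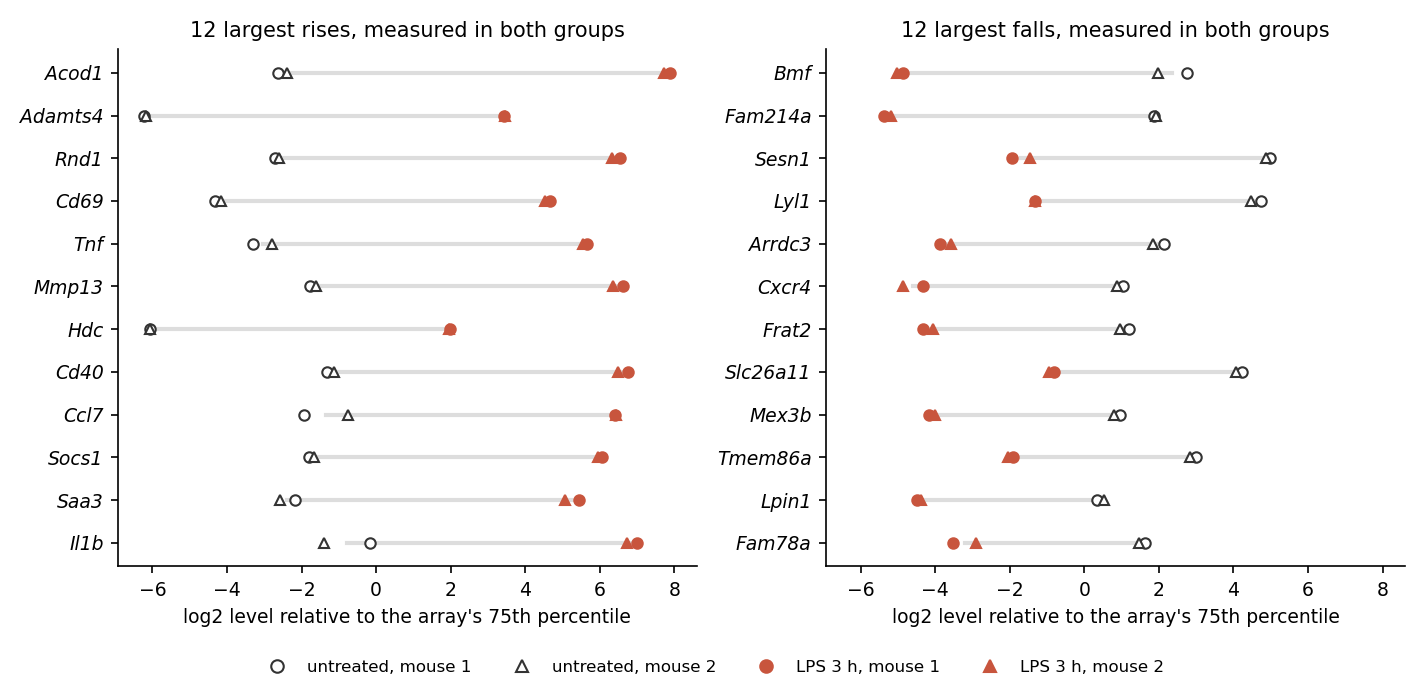
Log2 level relative to the array's 75th percentile (horizontal axis) on each of the 4 arrays for the 12 genes that rose most and the 12 that fell most among those measured in both groups. Open symbols are untreated and filled symbols LPS 3 h samples, circles mouse 1 and triangles mouse 2, and grey bars join group means. The genes were picked by the size of their change, so none has overlapping groups, which also holds for 76.3% of all genes tested. The mice differ most in untreated cells for Ccl7 and Il1b.

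Frat1 and Frat2, neighbouring genes for proteins that bind the kinase GSK3, fell together. Frat2 went from 1.21 and 0.95 to -4.32 and -4.05. Frat1 went from 0.18 and -0.06 to below background, an at least 93.6-fold fall. Their promoter windows share an identical run of 63 bases, and the stretch of it around a match to GTAAACA (FOXO, here on the reverse strand as TGTTTAC, in capitals) is the same in both.
Frat1, chr19:41829962-41829988, + strand: cgtcacccatTGTTTACaaatcaaccc
Frat2, chr19:41848118-41848144, - strand: cgtcacccatTGTTTACaaatcaaccc
Of the 16 genes with the largest falls named here 14 have a window, and Frat1, Frat2 and Sesn1 hold such a match. Of the windows of all genes called at least 4-fold lower 3.02% hold one, beside 2.89% of all windows, and 1 of the 14 rises with a window does too. The share for the falls is incomplete as well, since 515 of these 796 genes have a window. Since the 2 genes are close copies, their probes may share signal, and the falls are not 2 independent observations. Other genes also fell to below background: Vgll4, a cofactor of TEAD factors, at least 16.9-fold, Inka2 at least 13.6-fold, and the probe named Trav3-4, after a T cell receptor segment, at least 16.3-fold, while no T or NK cell marker passed the test.

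Genes of the receptor and its adaptors and kinases rose more often than they fell. This list and those below were chosen with earlier results of these data known, so their shares are descriptions and not independent tests. Of 25 members tested 17 rose (68.0%, beside 26.4% of all genes), 6 fell (24.0%, beside 25.7%) and 2 did not pass. The median change was 0.705. Cd14, the co-receptor that hands over LPS, went from 4.05 and 3.87 to 7.02 and 6.73, a rise of 2.92 ± 0.12. Ripk2, a kinase of NOD receptor signalling, rose by 4.61 ± 0.11, the ubiquitin ligase gene Peli1 by 3.35 ± 0.12, and Tank, an adaptor of the kinase TBK1, by 2.77 ± 0.13. The receptor gene Tlr4 itself fell, from 1.46 and 1.41 to 0.82 and 0.57. Tab1, a partner of the kinase TAK1, fell by 1.93 ± 0.14, Ticam2, which encodes the adaptor TRAM, by 1.27 ± 0.08, and the kinase gene Irak4 by 1.06 ± 0.14. Traf6 (0.17 ± 0.17) and Ly86 (0.04 ± 0.13) did not pass. The co-receptor and several downstream kinases were thus higher at 3 h while the receptor, TRAM and IRAK4 genes were lower.

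The NF-kB list moved further, with 22 of 24 members higher (91.7%, beside 26.4% of all genes). In it 1 was lower (4.2%, beside 25.7%) and 1 did not pass (median 2.444). Tnfaip3, whose product A20 removes ubiquitin chains from the signalling complex, went from 0.97 and 0.75 to 7.26 and 6.91. Traf1, an adaptor of TNF receptors, rose by 5.79 ± 0.12, Tnip3, a partner of A20, by 5.73 ± 0.18, and Nfkbie, which encodes the inhibitor IkB epsilon, by 5.04 ± 0.12. The deubiquitinase gene Cyld, also an inhibitor, fell from 1.32 and 1.12 to -0.62 and -0.41, and Otud7b stood at -0.53 ± 0.31 and did not pass. Among inhibitors, Tnfaip3, Tnip3 and Nfkbie were thus higher and Cyld lower in both mice.

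Of 22 immediate early transcription factor genes 20 were tested. Among these 14 rose (70.0%, beside 26.4% of all genes), 2 fell (10.0%, beside 25.7%) and 4 did not pass (median 0.901). Maff, a small Maf protein gene, rose by 5.45 ± 0.17, the AP-1 family genes Batf and Junb by 3.13 ± 0.13 and 2.78 ± 0.31, and Atf3 by 2.20 ± 0.14. The antiproliferative gene Btg2 fell by 2.04 ± 0.14 and the nuclear receptor gene Nr4a1 by 1.33 ± 0.21. Fosl1 (1.60 ± 0.61), Ier2 (0.30 ± 0.21), Jun (0.13 ± 0.23) and Ier5 (-0.18 ± 0.28) did not pass. For Fosl1 the mice parted, with -5.81 and -6.14 in untreated cells and -3.21 and -5.53 at 3 h.

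Genes that end MAP kinase signalling or cytokine messages went both ways. Of 20 tested 10 rose, 5 fell and 5 did not pass (median 0.582). Dusp2, a phosphatase of MAP kinases, went from -0.24 and -0.17 to 6.99 and 6.47. Dusp14 rose by 5.83 ± 0.19, Dusp16 by 3.93 ± 0.14, and Zc3h12a, which encodes the RNase Regnase-1 that cleaves cytokine messages, by 3.77 ± 0.20. Against these, Zfp36l1 and Zfp36l2, which encode proteins that bind AU-rich elements and speed message decay, fell by 3.80 ± 0.24 and 2.89 ± 0.18, and Dusp6, the ERK phosphatase, by 2.32 ± 0.26. Members of 1 family thus parted, with Dusp2 up and Dusp6 and Dusp7 (-1.52 ± 0.08) down.

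Cytokine and growth factor genes rose in 30 of 35 tested members of 37 listed (85.7%, beside 26.4% of all genes). They fell in 3 (8.6%, beside 25.7%) and did not pass in 2. The median was 3.989, or 2.978 with members below background set to their bounds. Tnf went from -3.30 and -2.79 to 5.65 and 5.56, a rise of 8.65 ± 0.26. Il1b, which makes interleukin-1 beta, went from -0.17 and -1.39 to 6.996 and 6.74; the untreated mice differed by more than those at 3 h. Il1a was called higher, from -6.59 and -6.81, with 1 of the 2 untreated arrays above background, to 4.83 and 4.45. Edn1 (endothelin-1) rose at least 338-fold, Tnfsf4, which encodes the T cell costimulator OX40L, at least 265-fold, Il12b, the shared subunit of interleukins 12 and 23, at least 224-fold, and the alarmin gene Il33 at least 189-fold. Gdf15, a stress cytokine, fell by 2.01 ± 0.22, Vegfa, a growth factor of blood vessels, by 1.61 ± 0.22 and Ltb by 0.68 ± 0.10. Igf1 (0.41 ± 0.16) and Tgfb1 (0.14 ± 0.08) did not pass. Where only probes above background on all 12 arrays were used, 19 members rose, since fewer of them could be tested.

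Chemokine genes rose in both families, and 0 were called lower (beside 25.7% of all genes). Among 13 tested CC members 12 rose (92.3%, beside 26.4%), with a median of 4.6, or 3.096 with bounds. Among 12 CXC members 8 rose (66.7%), with a median of 3.074, or 2.906 with bounds. Ccl7 went from -1.93 and -0.74 to 6.42 and 6.43, and Ccl2, the ligand of CCR2 on monocytes, from 0.66 and 2.11 to 7.83 and 7.94, so that mice that differed untreated were level at 3 h. Ccl5 rose by 6.90 ± 0.21 and Ccl4 by 6.12 ± 0.25. Of the CXC genes, Cxcl9, an interferon-induced ligand of CXCR3, was called higher, from -6.88 and -8.07 to 3.104 and 2.97. The neutrophil chemokine gene Cxcl1 was too, from -7.41 and -6.64 to 0.85 and 0.98, and for both 1 of the 2 untreated arrays was above background. Ccl6 (-0.13 ± 0.09), Pf4 (0.25 ± 0.12), Cxcl11 (0.22 ± 0.09), Cxcl14 (0.17 ± 0.27) and Cxcl12 (-0.89 ± 0.36) did not pass. With mouse as a block 1 CXC member was called lower.

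Of 30 receptors for chemokines and other ligands of G proteins, 14 rose (46.7%, beside 26.4% of all genes) and 11 fell (36.7%, beside 25.7%). The other 5 did not pass (median 0.354, or 0.228 with bounds). Gpr84, a receptor of medium-chain fatty acids, went from -1.52 and -1.73 to 5.62 and 5.13, and Adora2a, an adenosine receptor that restrains inflammation, from -3.76 and -4.23 to 2.58 and 2.61. Fpr2, a formyl peptide receptor gene, rose by 5.43 ± 0.22 and Ccrl2 by 5.35 ± 0.12. Cxcr4, the receptor of CXCL12, fell from 1.04 and 0.87 to -4.33 and -4.87. Lpar6, a lysophosphatidic acid receptor gene, fell by 4.24 ± 0.16 and Gpr34 by 2.62 ± 0.20.

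All 30 antiviral interferon-stimulated genes rose, with a median of 3.269, beside 26.4% of all genes. Ifit1, which binds viral RNA, went from -0.92 and -0.42 to 6.95 and 6.63, and Cmpk2, a mitochondrial nucleotide kinase gene, from -0.67 and -0.24 to 7.11 and 6.88. Oasl1 rose by 7.22 ± 0.12 and Mx2, a dynamin-like antiviral gene, by 7.17 ± 0.14. Of 11 GTPases of the GBP and IRG families, which act on vacuoles that hold microbes, 10 rose and Gbp8 (0.38 ± 0.19) did not pass (median 3.986). Gbp4 rose by 6.29 ± 0.30, Gbp5 by 6.23 ± 0.16, Gbp6 by 5.28 ± 0.16 and Gbp2 by 4.63 ± 0.18.

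Interferon regulatory factors, STATs, SOCS genes and their partners rose in 20 of 25 (80.0%, beside 26.4% of all genes). They fell in 1 (4.0%, beside 25.7%) and did not pass in 4 (median 1.606). Socs1, an inhibitor of JAK kinases, went from -1.79 and -1.67 to 6.07 and 5.95. Usp18, which removes the ubiquitin-like protein ISG15, rose by 5.48 ± 0.18 and Cish, a STAT5 target gene of the SOCS family, by 5.396 ± 0.13. Irf4 fell by 0.73 ± 0.21, a call lost without either untreated array (adjusted p = 0.0712 and 0.0556) or without the 3 h array of mouse 2 (adjusted p = 0.106). Irf3 (-0.27 ± 0.12), Stat4 (0.42 ± 0.20), Tyk2 (0.13 ± 0.18) and Stat6 (0.11 ± 0.07) did not pass.

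Genes for arginine, nitric oxide, polyamine and itaconate metabolism rose in 12 of 15 tested members (80.0%, beside 26.4% of all genes). They fell in 2 (13.3%, beside 25.7%) and did not pass in 1 (median 2.619). Nos2, the inducible nitric oxide synthase gene, went from -1.16 and -1.20 to 3.87 and 3.91, and Slc7a2, an arginine transporter gene, rose at least 57.8-fold. Acod1 and Hdc, given above, belong to this list. Arg1, the arginase gene of alternatively activated macrophages, is 1 of the 12 but was below background in both groups, so no fold is given. Sat1 and Spr were the falls, at -0.56 ± 0.15 and -0.46 ± 0.15, and both calls were lost in a fit of the 4 arrays alone (adjusted p = 0.0737 and 0.101).

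Glycolysis and hypoxia-inducible genes rose in 15 of 25 (60.0%, beside 26.4% of all genes). They fell in 2 (8.0%, beside 25.7%) and did not pass in 8 (median 0.437). Hk2, a hexokinase gene, went from 1.78 and 1.56 to 5.77 and 5.13, and Pfkfb3, which makes the activator of phosphofructokinase, from 1.74 and 1.31 to 4.92 and 4.64. The glucose transporter gene Slc2a1 rose by 2.67 ± 0.12 and Adm by 2.65 ± 0.21, while Ankrd37 fell by 2.59 ± 0.16 and the mitophagy gene Bnip3 by 0.60 ± 0.12. TCA cycle genes moved little: 3 of 20 rose (15.0%, beside 26.4% of all genes), 6 fell (30.0%, beside 25.7%) and 11 did not pass (median -0.079). Idh1 fell by 0.80 ± 0.16, the fumarase gene Fh1 by 0.74 ± 0.13, Aco1 by 0.43 ± 0.09 and Suclg2 by 0.39 ± 0.11, while Idh3a (0.50 ± 0.14), Dlst (0.47 ± 0.09) and the citrate synthase gene Cs (0.25 ± 0.09) rose. Shifts of this size depend on the scaling, and under quantile normalization 11 members fell and Cs stood at -0.14 without a call.

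Of 20 eicosanoid genes tested 7 rose (35.0%, beside 26.4% of all genes), 8 fell (40.0%, beside 25.7%) and 5 did not pass (median -0.31), with enzymes and receptors on both sides. Ptgs2, which encodes the inducible cyclooxygenase-2, rose at least 250-fold, from -9.19 and -8.99 to 1.21 and 0.95, and Pla2g4a, which releases arachidonic acid, rose by 2.45 ± 0.21. The receptor genes Ptgir and Ptger4 rose by 1.56 ± 0.12 and 1.18 ± 0.18. Hpgd, which breaks prostaglandins down, fell by 1.78 ± 0.20, Cysltr1, a leukotriene receptor gene, by 1.24 ± 0.10 and Ptgs1, the constitutive cyclooxygenase gene, by 1.08 ± 0.21. Ptger3 fell by 1.55 ± 0.34, a call that the mean over its probes did not give (adjusted p = 0.0861).

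Inflammasome genes rose in 11 of 16 (68.8%, beside 26.4% of all genes), fell in 3 (18.8%, beside 25.7%) and did not pass in 2 (median 1.246). The sensor gene Nlrp3 went from -2.71 and -2.57 to 0.50 and 0.12, Nlrc5, a regulator of MHC class I genes, rose by 2.90 ± 0.14 and Casp4, the caspase that senses LPS inside the cell, by 2.77 ± 0.11. P2rx7, the ATP receptor that triggers NLRP3, fell from 4.30 and 4.04 to 1.63 and 1.65, and Nlrp1b fell by 1.89 ± 0.17. Nlrc4 fell by 0.31 ± 0.10, and that call was lost with mouse as a block (adjusted p = 0.0508) and without any 1 of the 4 arrays except the 3 h array of mouse 1.

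Of 17 genes of antigen presentation and costimulation tested 8 rose (47.1%, beside 26.4% of all genes) and 3 fell (17.6%, beside 25.7%). The other 6 did not pass (median 0.754). Cd40, the costimulatory receptor, went from -1.31 and -1.12 to 6.74 and 6.48. Vcam1 and Icam1, adhesion molecules, rose by 6.45 ± 0.40 and 4.21 ± 0.20, and Cd274, which encodes PD-L1, by 4.88 ± 0.15. Cd74 (0.75 ± 0.30), H2-Ab1 (0.49 ± 0.41), H2-Aa (0.33 ± 0.38) and H2-Eb1 (0.20 ± 0.40), which encode the class II molecule and its chaperone, did not pass. In H2-Ab1 the mice stood apart at both times, with 3.12 and 3.58 in mouse 1 and 2.02 and 2.53 in mouse 2. Cd80 fell by 1.71 ± 0.11 by its brightest probe, but with the mean over its probes the change was -0.12 (adjusted p = 0.449), so the probes disagree. H2-DMb2, above background on 1 of the 2 arrays at 3 h, and Pdcd1lg2 (-0.53 ± 0.11) fell too, and both lost their call in other settings (after normexp background correction, adjusted p = 0.387 and 0.307).

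**Figure D3:**
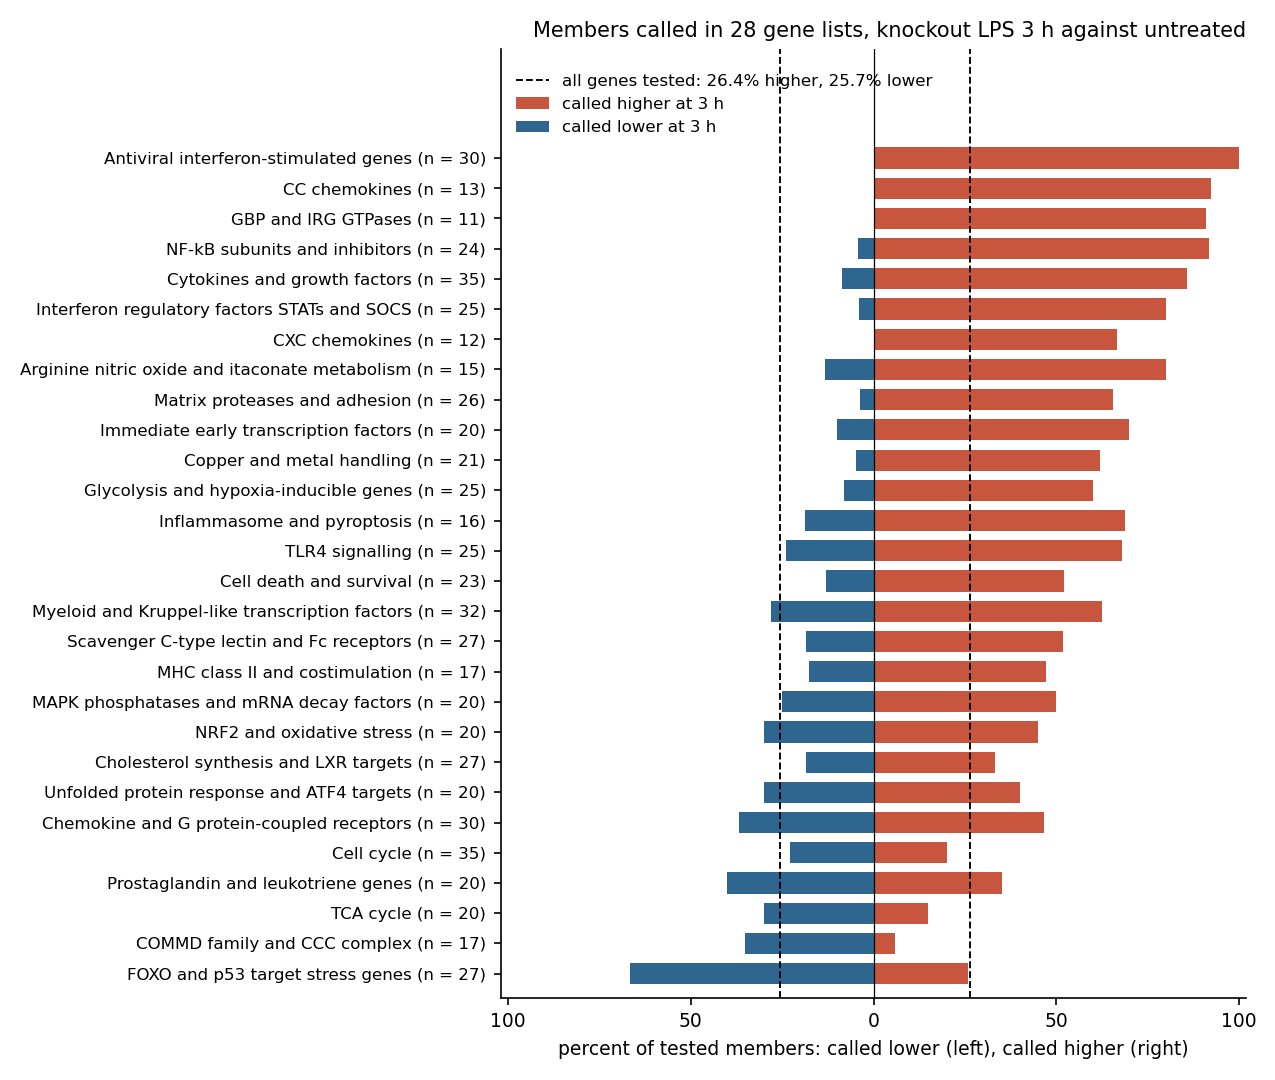
Percent of the tested members of each of 28 gene lists called higher (right, red) or lower (left, blue) in knockout cells at 3 h of LPS, with the number tested after each name. Dashed lines give the shares over all genes tested, 26.4% higher and 25.7% lower. Antiviral interferon-stimulated genes stand at 100% higher, and the FOXO and p53 list has 18 of 27 members lower. The lists were chosen with earlier results of these data known, so the shares are not independent tests.

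The list of stress genes linked to FOXO factors or p53 had the most falls, 18 of 27 tested (66.7%, beside 25.7% of all genes). Because its members were chosen with earlier results of these data known, this share is partly built in. Of the others 7 rose (25.9%, beside 26.4%) and 2 did not pass (median -1.265). Bmf and Sesn1 head it. Trp53inp1, a p53-induced gene of stress and autophagy, went from 3.52 and 3.57 to -1.22 and -1.18, and Tsc22d3, which encodes the glucocorticoid-induced leucine zipper, from 4.92 and 4.72 to 0.17 and 0.37. Not all members of the list were lower. Cdkn1a, which encodes the cell cycle inhibitor p21, rose by 2.46 ± 0.15, Gadd45b by 4.26 ± 0.10 and Gadd45g by 2.77 ± 0.14. The repressor gene Bcl6 rose by 1.5 ± 0.14. Zfp36l2, also in the message decay list, is among the falls.

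Genes of cell death and survival rose in 12 of 23 tested members, fell in 3 and did not pass in 8 (median 0.618). Cflar, which encodes the caspase-8 inhibitor FLIP, went from -0.92 and -0.99 to 5.04 and 4.35. Serpinb2 rose by 4.11 ± 0.29 and Bcl2a1d, a survival gene, by 3.09 ± 0.14, with near-identical copies in the genome that its probe may also read. The BH3-only gene Bcl2l11, which promotes death, rose by 3.81 ± 0.13, whereas Pmaip1 and Bbc3, the BH3-only genes for NOXA and PUMA, fell by 2.35 ± 0.14 and 1.59 ± 0.15. Pim3, a kinase gene, fell by 0.96 ± 0.20. BH3-only genes therefore parted, with Bcl2l11 and Bid up and Bmf, Pmaip1 and Bbc3 down.

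Cell cycle genes were called about as often as all genes or less: of 35 tested 7 rose (20.0%, beside 26.4%), 8 fell (22.9%, beside 25.7%) and 20 did not pass (median -0.302). With mouse as a block 8 rose and 17 fell. Ccnd2, a D-type cyclin gene, went from -1.74 and -1.24 to 4.64 and 4.28, and Tyms, the thymidylate synthase gene, rose by 2.47 ± 0.13. E2f2, an activator of replication genes, went from 0.01 and 0.78 to -3.70 and -2.57, and Cdc20 and Cdk2 fell by 1.42 ± 0.23 and 1.21 ± 0.18. Cdc6, which loads replication origins, was called lower, from -3.14 and -2.75 to -6.66 and -6.24, with 1 of the 2 arrays at 3 h above background. Ccna2, 1 of the genes that did not pass, stood at 1.87 and 2.53 untreated and 1.26 and 1.96 at 3 h, lower in mouse 1 than in mouse 2 at both times. The rises of Ccne1 (1.43 ± 0.35) and E2f8 (0.92 ± 0.30) were lost in a fit of the 4 arrays alone (adjusted p = 0.0719 and 0.138), and without either the untreated array of mouse 1 or the 3 h array of mouse 2 only 4 members rose.

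Of 32 transcription factors of myeloid cells and of the KLF family tested, 20 rose (62.5%, beside 26.4% of all genes) and 9 fell (28.1%, beside 25.7%). The other 3 did not pass (median 1.005). Gfi1, a repressor of myeloid genes, was called higher, from -6.699 and -8.96, with 1 of the 2 untreated arrays above background, to -1.34 and -1.58. Mxd1, a MYC antagonist gene, rose by 3.86 ± 0.18, Klf7 by 2.95 ± 0.14 and Id1 by 2.72 ± 0.31. Cebpa, a factor of the granulocyte and macrophage lineage, went from 1.54 and 1.53 to -3.49 and -2.94. Klf2, which restrains inflammatory genes, fell by 2.59 ± 0.17. Cebpa and Lyl1 were thus lower on both 3 h arrays than on either untreated one. Of the 9 macrophage markers 2 rose and 2 fell.

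Scavenger, lectin and Fc receptor genes rose in 14 of 27 tested members (51.9%, beside 26.4% of all genes). They fell in 5 (18.5%, beside 25.7%) and did not pass in 8 (median 0.446). Clec4e, the lectin Mincle that binds mycobacterial cord factor, went from 0.14 and -0.16 to 5.87 and 5.57, and Clec5a rose at least 3.92-fold. Trem1, an activating receptor gene, fell from 2.78 and 2.84 to 0.92 and 1.20, and Mertk, which takes up apoptotic cells, fell by 1.05 ± 0.13. Clec10a (-1.21 ± 0.27) and Clec4a2 (-0.96 ± 0.22) also fell, the first not in a fit of the 4 arrays alone (adjusted p = 0.0559) and the second not in the deposited value table (adjusted p = 0.354). Under quantile normalization 11 members fell. Matrix protease and adhesion genes rose in 17 of 26 (65.4%, beside 26.4%), fell in 1 (3.8%, beside 25.7%) and did not pass in 8 (median 1.629). Mmp13, a collagenase gene, went from -1.77 and -1.61 to 6.62 and 6.36, and F3, which encodes tissue factor, rose by 6.15 ± 0.30. Timp2, a protease inhibitor gene, fell by 0.47 ± 0.10, but not with the mean over its probes (adjusted p = 0.0814), and with mouse as a block 2 members fell.

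Cholesterol synthesis genes and LXR targets rose in 9 of 27 (33.3%, beside 26.4% of all genes), fell in 5 (18.5%, beside 25.7%) and did not pass in 13 (median 0.247), shares near those of all genes. Ch25h, which makes the antiviral oxysterol 25-hydroxycholesterol, went from -4.59 and -5.57 to 2.44 and 2.41. The SREBP2 target Cyp51 rose by 1.45 ± 0.18, while the LXR targets Mylip, a ubiquitin ligase gene, and Abcg1, which exports cholesterol, fell by 1.79 ± 0.15 and 1.08 ± 0.15. Scd2 fell by 1.28 ± 0.24 and Dhcr7 by 1.05 ± 0.24. Oxidative stress genes rose in 9 of 20 (45.0%, beside 26.4%), fell in 6 (30.0%, beside 25.7%) and did not pass in 5 (median 0.241). Slc7a11, the cystine transporter gene, rose by 5.43 ± 0.22, the mitochondrial superoxide dismutase gene Sod2 by 3.58 ± 0.10, Txnrd1 by 2.17 ± 0.16 and Sqstm1 by 1.68 ± 0.14. Nfe2l2, which encodes NRF2, fell by 0.83 ± 0.10, its target Hmox1 by 0.71 ± 0.12, and Gclc and Gclm, the subunits of the glutathione-making ligase, by 1.25 ± 0.23 and 0.65 ± 0.13. Unfolded protein response and ATF4 target genes rose in 8 of 20 (40.0%, beside 26.4%) and fell in 6 (30.0%, beside 25.7%). The other 6 did not pass (median 0.126). Eif2ak3, which encodes the stress kinase PERK, went from 1.69 and 1.60 to -1.77 and -1.37, and Herpud1 (-1.94 ± 0.13), Ddit3 (-1.44 ± 0.10) and Sesn2 (-1.44 ± 0.19) fell. Chac1, Psat1 and Atf4 rose by 1.41 ± 0.25, 1.17 ± 0.26 and 0.93 ± 0.11, as did Asns (0.99 ± 0.26). Asns was not called in a fit of the 4 arrays alone, which left 4 rises in the list.

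Of 17 members of the COMMD family and the CCC and related sorting complexes, 1 rose (5.9%, beside 26.4% of all genes), 6 fell (35.3%, beside 25.7%) and 10 did not pass (median -0.118). Ccdc93, a subunit of the CCC complex, went from -1.17 and -0.98 to 1.01 and 0.93. Vps26b, a retromer subunit gene, fell by 1.23 ± 0.12, Commd8 by 0.68 ± 0.08, Commd9 by 0.57 ± 0.10 and Commd6 by 0.52 ± 0.11. Genes of copper and other metals rose in 13 of 21 (61.9%, beside 26.4%). They fell in 1 (4.8%, beside 25.7%) and did not pass in 7 (median 0.375), with 4 lower under quantile normalization. Mt2, a metallothionein gene, went from 2.90 and 3.20 to 7.14 and 6.90, and the metal importer gene Slc39a14 from -1.63 and -1.61 to 2.52 and 2.21. Cp, which encodes the copper carrier ceruloplasmin, rose by 3.60 ± 0.30, and Steap4, a metalloreductase gene, at least 10.4-fold. Slc40a1, which encodes ferroportin, the exporter of iron, fell from 5.05 and 4.98 to 1.56 and 1.53. The copper exporter genes Atp7a and Atp7b were among the members that rose, and Atox1 (0.15 ± 0.14), the copper chaperone gene, did not pass.

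Whether the response was particular to the knockout was tested as the difference between the change in knockout and the change in wildtype cells. Of 22971 genes 8 (0.0348%) passed, 6 with the more positive change in knockout and 2 with the more negative, and 2855 had an unadjusted p under 0.05. Across 19342 genes measured in all 4 groups the 2 genotypes' changes correlated with r of 0.952, and their SD was 1.139 in knockout and 1.019 in wildtype. This correlation is across genes, which are not independent replicates, and the genotypes share no sample. Spike-in RNAs gave a steeper slope on the knockout arrays of these times (0.794 to 0.799) than on the wildtype ones (0.735 to 0.743). With levels divided by it, 19 genes passed, among them the 4 described next (adjusted p = 0.0362 to 0.0483). On each slide the wildtype arrays lay at positions 1 and 2 and the knockout arrays at 3 and 4. An effect of position and one of genotype thus cannot be told apart.

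Cxcl10, an interferon-induced chemokine gene, rose less in knockout than in wildtype cells, by 2.17 ± 0.23 on the log2 scale (adjusted p = 0.0317). Its untreated level was 0.38 and 0.43 in knockout and -1.71 and -2.28 in wildtype cells, and at 3 h it was 7.69 and 7.61 against 7.37 and 7.47. The genotypes thus parted by more than 2 untreated and lay within 0.4 of each other at 3 h. Cd200, which encodes a ligand that restrains myeloid cells, rose by 6.93 ± 0.16 in knockout and 4.62 ± 0.16 in wildtype cells, a difference of 2.31 ± 0.23 (adjusted p = 0.0317). Here too the untreated levels differed, with -4.37 and -3.97 in knockout and -1.64 and -1.62 in wildtype cells, while at 3 h they were 2.91 and 2.61 in knockout and 3.102 and 2.87 in wildtype cells. Slamf8, a surface receptor of the SLAM family, went from -0.999 and -1.07 to 1.97 and 1.76 in knockout and from -0.16 and -0.06 to 1.55 and 1.48 in wildtype cells, a difference of 1.27 ± 0.13 (adjusted p = 0.0317). Npas4, a transcription factor gene best known from neurons, did not pass in knockout cells (-0.11 ± 0.18) and fell by 2.44 ± 0.18 in wildtype, a difference of 2.33 ± 0.25 (adjusted p = 0.0317). Vgll4 was the other gene with the more negative change, and Ttll2 and Sox7 were among those with the more positive one. Each of these was below background in a group compared and is given without a size.

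These differences rest on few arrays. With mouse as a block 1 gene passed, Chac1, named after its value was seen, and the 4 genes had adjusted p = 0.128 to 0.132. Without knockout mouse 1 at either time 0 genes passed in limma, and 2628 and 1966 had an unadjusted p under 0.05 without its 3 h and its untreated array. Without the 3 h array of knockout mouse 2, 371 passed, and without its untreated array 56. Leaving out a wildtype array gave 5 to 21. Il1b, for which the untreated level was higher on the knockout arrays (-0.17 and -1.39) than on the wildtype ones (-4.80 and -5.14), had a difference of -4.02 ± 0.50 that did not pass (adjusted p = 0.0528).

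**Figure D4:**
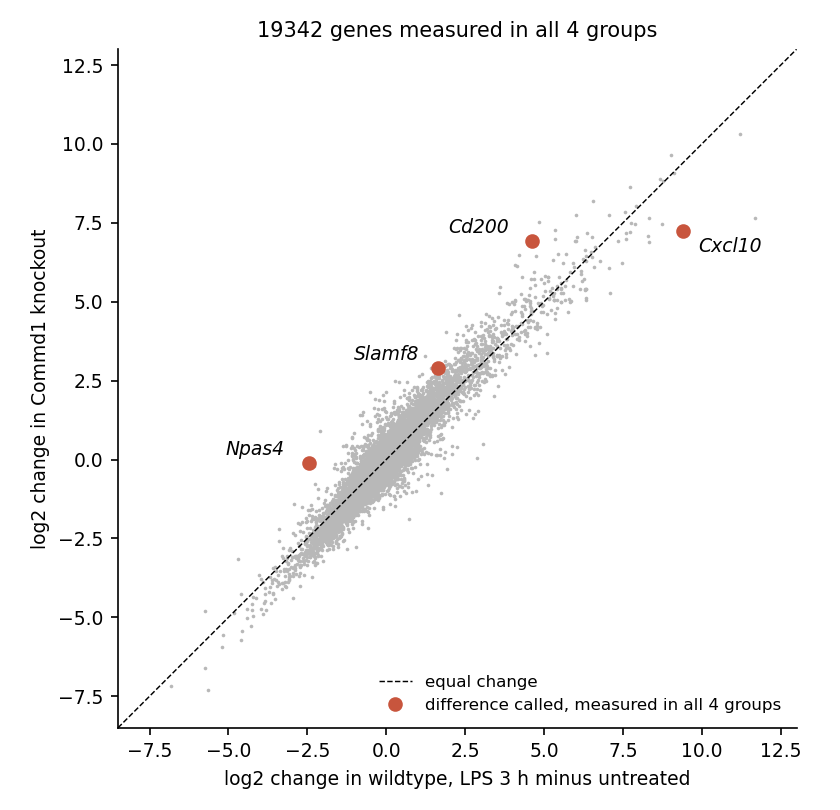
Log2 change after 3 h of LPS in Commd1 knockout cells (vertical axis) against that in wildtype cells (horizontal axis) for 19342 genes measured in all 4 groups. Grey points are genes, the dashed line marks equal change, and the 4 red points are the genes whose difference was called, of which Cxcl10 lies below the line and Cd200, Slamf8 and Npas4 above it.

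The later samples of the same mice show which of the 3 h changes were still there at 24 h. This second comparison shares the 3 h arrays with the first, so the values are given side by side and not counted together. The 24 h arrays lay on a different slide from the 3 h and the untreated arrays. An effect of the slide and one of time thus cannot be told apart here either. Of all genes 6051 were higher at 24 h than at 3 h (26.3%) and 7490 lower (32.6%). Il6 fell by 7.24 and Tnf by 4.35 on the log2 scale from 3 h to 24 h, and Ptgs2 fell too (-6.001). Il12b was called lower too, from 0.97 and 0.87 to below background, so no size is given. Adamts4 was called lower, from 3.43 and 3.46 to -6.76 and -6.17, with 1 of the 2 arrays at 24 h above background. Ccl2 (-0.01), Ccl5 (0.22), Ccl7 (-0.09) and Ifnb1 (0.35) did not pass, and Saa3 rose further, by 2.74. Of the other chemokine genes named here, Ccl4 (-0.97) and Cxcl10 (-0.49) fell and Cxcl9 (0.845) did not pass. Cxcl3 and Cxcl1 were called lower, from 1.41 and 1.44 and from 0.85 and 0.98 to below background, so no size is given.

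Among the antiviral genes Cmpk2 (-0.26) and Oasl1 (0.08) did not pass from 3 h to 24 h, Ifit1 fell by 1.17 and Mx2 by 1.21, and all 4 stayed far above their untreated levels. Of the genes that had fallen, Arrdc3 rose by 5.83, Tmem86a by 5.50, Lyl1 by 5.30, Sesn1 by 3.83 and Bmf by 3.63. Arrdc3 was at 2.12 and 2.09 at 24 h, against 2.14 and 1.83 untreated. Frat2 (-0.24) did not pass and was still low, at -4.36 and -4.48. Tlr4, which had fallen by 0.73, rose by 1.51 to above its untreated level, and Tab1 rose by 1.70. Of the 12 genes with the largest falls measured in both groups, all but Frat2 were higher at 24 h than at 3 h, with Lpin1 the least (0.65). Of all genes 26.3% were. The 12 genes were picked for low levels on the same 3 h arrays, so a rise from there is partly built in.

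**Figure D5:**
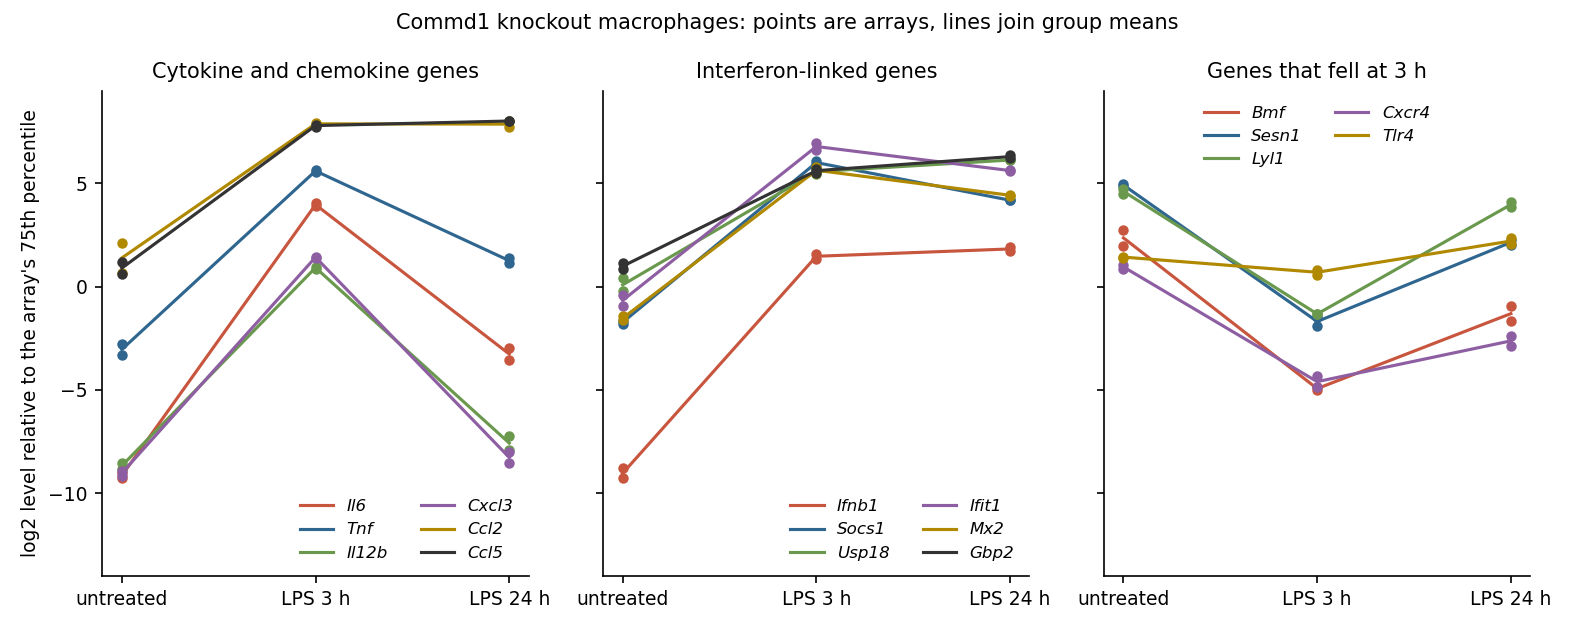
Log2 level (75th percentile of the array = 0) of 17 genes in untreated Commd1 knockout cells and at 3 h and 24 h of LPS, in 3 panels. Points are the 2 arrays of a group and lines join group means; Il6, Tnf, Il12b and Cxcl3 come down from 3 h to 24 h (Il12b and Cxcl3 to below background), Ccl2, Ccl5 and the interferon-linked genes stay high or nearly so, and the 5 genes that fell at 3 h move back up.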

How the data were processed

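The series holds 12 samples, each on 1 single-colour array with 43020 spots besides the controls. The deposited scanner files hold a processed intensity per spot (per the file headers), background-subtracted within the array and not scaled between arrays, with flags for spots above background. Agilent Feature Extraction 10.7.3.1 made them, per the submitters' processing notes. The authors' deposited value table holds log2 values: per array, 99.5% to 100% of probes equal the log2 processed intensity minus a constant within 0.01. Its column medians were -4.32 and -4.41 (knockout untreated) and -4.30 and -4.38 (knockout 3 h), so genes were not centred.

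Control and outlier spots were left out (132 to 214 outlier spots per array, 589 on replicate 1 of the knockout 24 h group), spots of a probe were averaged, and the 75th percentile of each array was subtracted from its log2 intensities. A probe entered if well above background on both arrays of a group, and each gene was represented by its brightest probe on average. Of 39429 probes 78.7% were matched to RefSeq symbols. All 12 arrays were fitted in limma 3.58.1 (R 4.3.3; Python 3.11.15, pandas 2.3.3) with 6 group means (6 residual and 2.23 prior degrees of freedom), two-sided, with Benjamini-Hochberg adjustment at 0.05, and the fit was tested on simulated data. Values after ± are standard errors. Members and gene lists were chosen with earlier results of these data known; named genes are the 12 largest changes in each direction measured in both groups, the 8 rises and 4 falls with the largest bounds, called differences between genotypes, and up to 4 called members of a list in each direction. The labels give the mouse of each sample, and deviations of a mouse's untreated and 3 h arrays correlated with r = 0.351 in knockout and 0.189 in wildtype.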

Additional observations from a re-analysis of the deposited data

Results flagged for a closer look

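The response to 3 h of LPS differed between knockout and wildtype cells for 8 genes by the test of the difference, and 4 of these were measured above background in all 4 groups. The change in knockout minus that in wildtype was 2.33 for Npas4, 2.31 for Cd200, 1.27 for Slamf8 and -2.17 for Cxcl10 on the log2 scale. For all 4 genes the genotypes already stood apart in untreated cells. There Npas4 was at -4.56 and -4.01 in knockout and -2.37 and -2.26 in wildtype cells. The test of the difference uses these untreated arrays, so a gap between them is partly built in. How many of all genes have such a gap was not counted. The steeper spike-in slope of the knockout arrays moves with the genotype, and the 4 calls were also made with levels divided by it. The position on the slide moves with the genotype too, so the 2 cannot be told apart, and dividing by the slope does not separate them.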

How the results depend on the processing

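Alternatives changed 1 choice at a time. The count of called genes was 11974 and ranged from 9939 (only the 4 arrays compared) to 12826 (without replicate 1 of the knockout 24 h group, added after the data were seen), with every alternative within 1.5 times. With mouse as a replicate block 12400 genes passed, 11572 of them called without it. Genes called with at least a 2-fold change ranged from 3819 after normexp background correction to 5735. The median of all genes moved to -0.068 with quantile normalization, 0.132 after normexp and 0.182 with no filter on dim probes. The count for the genotype difference, 8, depended on the setting: it was 40 in the deposited value table, 106 after normexp, 77 on probes above background on all arrays, 19 with levels divided by the spike-in slope (added after the data were seen), 1 with the replicate block, and 0 both with no filter on dim probes and with the compared groups alone, where 2894 and 2860 genes had an unadjusted p under 0.05 in limma. It ranged from 0 to 371 when 1 array was left out; the cause was not tested. Commd1, which was not called, ranged from -0.23 to 0.325 when 1 array was left out, and turned to -0.10 with scaling on probes detected on all arrays, -0.000157 after normexp, -0.20 without the untreated array of mouse 1 and -0.23 without the 3 h array of mouse 2, and Cs to -0.14 with quantile normalization. Of 2985 values for 201 named genes under 15 alternatives, 2918 kept direction and call, 62 lost the call and 5 reversed. Of 420 list medians 280 moved by less than the spread between mice and 140 did not. The median changed sign across settings for the cell cycle list (-0.709 to 0.025). It also did so for the oxidative stress (-0.091 to 0.298) and unfolded protein response lists (-0.104 to 0.243). Among the named genes the replicate block ended the calls of Cs (adjusted p = 0.0742) and Nlrc4 (0.0508). With 2 arrays a group, the number of arrays limits the precision.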
